A study of Mus musculus with 9 samples.

Results

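The genes described here encode the core of the elastic fibre, the microfibrils it forms on, and the proteins that assemble and cross-link it. They were chosen by symbol, as genes of a shared structure and not by a threshold on any value: Eln, Fbln1, Fbln2, Fbln5, Fbn1, Fbn2, Lox, Loxl1, Emilin1 and Mfap4. The choice was made with earlier results of these data known. Shares of these genes set beside those of all genes therefore describe the set and are no independent test of it. All 10 were found among the 48397 symbols counted, and all 10 passed the filter on low counts that kept 16522 genes for testing. RNA was sequenced from cardiac outflow tracts, the vessel-like arterial outlet of the embryonic heart, taken at embryonic day 12.5 from mouse embryos of the C57BL/6J strain. The wild-type group (genotype Nkx2-5+/+, 4 libraries) was compared with littermates homozygous for the deletion of an enhancer (genotype Nkx2-5delta-enh/delta-enh, 5 libraries, here "deletion"). This enhancer lies at Nkx2-5, a cardiac transcription factor gene, and acts in the anterior second heart field, the progenitor population that builds much of the outflow tract. The labels give the deletion as the genotype of the embryo, with no cell type to which it is limited.

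Elastic fibres give arteries their recoil. Secreted elastin monomers are gathered onto a scaffold of fibrillin microfibrils with the help of fibulins, and are joined into an insoluble polymer when lysyl oxidases convert lysine side chains into cross-links. In developing great arteries the main producers are smooth muscle cells, and loss of elastin or of fibrillin-1 leads to arterial disease in mice and in people.

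Each library had between 27707435 and 49094225 reads assigned to genes. A number in the name of each deposited file was read as a litter, which is an assumption. It put wild types 1 and 2 with deletions 1 and 2 (the first litter), and wild types 3 and 4 with deletions 3 and 4 (the second litter). Deletion 5 carried a number of its own, and is given separately. Nkx2-5 itself, the gene whose enhancer was removed, was measured at 18.8, 42.0, 45.0 and 39.5 CPM (read counts scaled to a common library size with TMM factors) in wild types 1 to 4 and at 16.5, 24.4, 17.8, 11.4 and 17.4 CPM in deletions 1 to 5. Its log2 fold change was -1.05 (SE 0.26, edgeR adjusted p 0.896). DESeq2 gave an adjusted p of 0.0580 without and 0.0242 with the replicate number as a block. The library of wild type 1 was within the values of the deletion group. The enhancer and not the transcript is removed, so this level checks the labels only indirectly, and wild type 1 stands throughout for the library so labelled. In deletion 2 the summed CPM of 11 neuronal markers was 2821, against 76.7 to 133 in the other 8 libraries. In wild type 1 the summed myocardial markers were 8526 CPM, against 12182 to 20266 CPM elsewhere. The labels do not say that each library is a single embryo, so p-values speak for the variation among these libraries, part of which may be technical.

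On the mm10 build, with GENCODE M21 gene models, Eln lies on chromosome 5 from 134702593 to 134747323, and Emilin1 on the same chromosome from 30913402 to 30921277. Fbn1 spans chromosome 2 from 125300594 to 125507993. The fibulin genes lie apart, with Fbln1 on chromosome 15 from 85205949 to 85286535, Fbln2 on chromosome 6 from 91212455 to 91272540, and Fbln5 on chromosome 12 from 101746565 to 101819055. Loxl1 is on chromosome 9 from 58287738 to 58313186, and Mfap4 on chromosome 11 from 61485431 to 61488900. Fbn2 (58008623 to 58210487) and Lox (52516067 to 52529867) are both on chromosome 18. All are protein coding, and the files give 1 count per gene symbol, not per exon or isoform. Fbn1, Fbn2 and Mfap4 share exon bases with a gene on the other strand. The partner of Fbn1, Gm9913, shares 2442 of the 12128 merged exon bases of Fbn1 and was counted at no more than 1.36 CPM. Gm26507, which shares 129 exon bases with Fbn2, reached 3.23 CPM. Mapk7, which shares 89 exon bases with Mfap4, reached 74.8 CPM. The strand setting of the counting is not given in the sources used here. Whether reads on the shared bases were left out of the counts is therefore not known, and a low count of the partner does not settle it.

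Eln was the most abundant of these transcripts in every library once length was taken into account. Its mean level over the 9 libraries was 543 CPM per kilobase of merged exon. The next 3, Fbln5 at 322, Mfap4 at 300.5 and Fbln2 at 288 CPM per kilobase, exchanged places between libraries. Fbln5 exceeded Mfap4 in 5 of 9 libraries, and Mfap4 exceeded Fbln2 in 5 of 9. Emilin1 followed at 134 CPM per kilobase and was below Fbln2 in all 9 libraries. Lox (76.3 CPM per kilobase) and Fbln1 (62.5 CPM per kilobase) could not be ordered, since Lox was the higher in 5 of 9 libraries. Loxl1 stood at 45.0 CPM per kilobase, above Fbn1 at 36.2 in 7 of 9 libraries. Fbn2, at 18.8 CPM per kilobase, was the lowest in all 9. The 2 fibrillins kept a nearly constant ratio per length, Fbn1 over Fbn2 lying between 1.71 and 2.26. The level of Fbn1 per length would be too low if reads on its shared bases were not counted. Its place beside Loxl1 and the size of ratios with Fbn1 carry that limit.

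**Figure D1:**
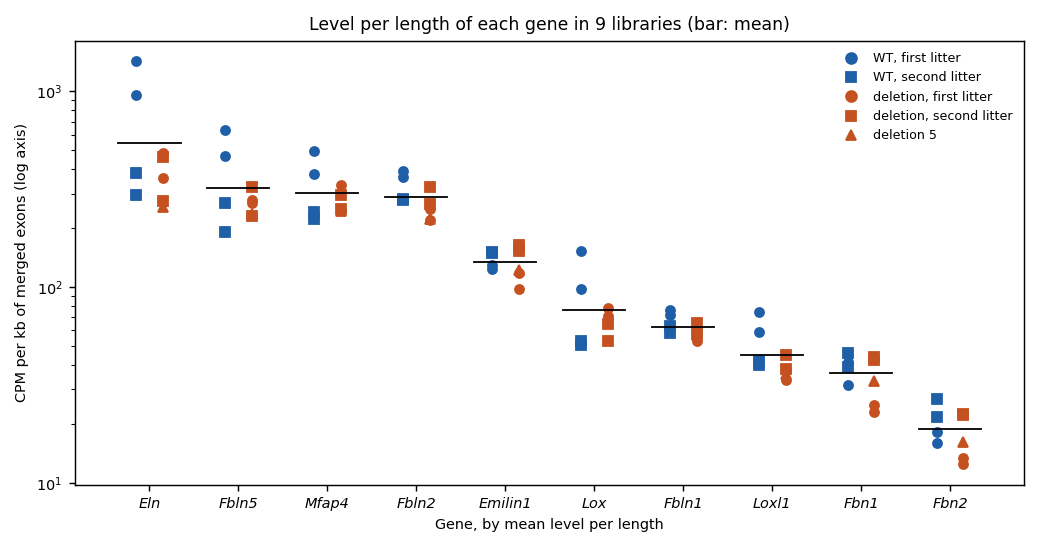
Level of each elastic fibre gene in CPM per kilobase of merged exon (log axis), with 1 point per library, coloured by genotype and shaped by litter, and a bar at the mean. Eln is the highest and Fbn2 the lowest in all 9 libraries, while Fbln5, Mfap4 and Fbln2 overlap.

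Across genotypes no member passed the test. edgeR's quasi-likelihood test with genotype as its only term called 0 of 16522 genes at a Benjamini-Hochberg adjusted p of 0.05 (0.0%), and 870 genes had an unadjusted p under 0.05, of which 486 were lower (2.94% of those tested). Among the 10 elastic fibre genes 3 were in that group, namely Eln, Fbln2 and Loxl1. DESeq2 called 38 of 18943 genes (0.201%), none of them a member. All 10 members had a log2 fold change below 0, as had 49.4% of all genes tested. Their median was -0.33, against 0.003 over all genes. Without wild type 1 the members' median was -0.23 with none at an unadjusted p under 0.05, and without wild type 1 and deletion 2 together it was -0.21, with all 10 still below 0. None of the 10 separated the 9 libraries by genotype without overlap, where 0.974% of all genes did so with the deletion lower.

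Eln encodes tropoelastin, the monomer of the fibre. It was read at 11564 and 7702 CPM in wild types 1 and 2, at 3111 and 2378 CPM in wild types 3 and 4, and at 2905, 3932, 2222, 3717 and 2076 CPM in deletions 1 to 5. Wild types 1 and 2 stood far above the other 7 libraries, and wild types 3 and 4 lay within the range of the deletion libraries. In wild types 1 and 2 no gene had more reads than Eln, which took 1.15% and 0.766% of gene reads. Wild types averaged 6189 ± 4289 CPM (SD, n = 4), and deletion libraries 2970 ± 844 CPM (SD, n = 5). On the log2 scale the genotype difference was -1.06 (SE 0.43, edgeR adjusted p 0.896). Without wild type 1 it was -0.57, with the replicate number as a block -0.70, with litter as a factor -0.69, and in limma-voom with sample weights -0.35.

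Fbln5, a short fibulin that binds tropoelastin and lysyl oxidases and tethers them to microfibrils, was the closest to Eln of the members. Its levels were 4363 and 3210 CPM in wild types 1 and 2, 1856 and 1325 CPM in wild types 3 and 4, and 1932, 1859, 1600, 2247 and 1622 CPM in deletions 1 to 5. The same 2 wild-type libraries were the highest, and wild type 4 was the lowest of all 9. The group means were 2688 ± 1370 CPM (SD, n = 4) and 1852 ± 264 CPM (SD, n = 5), which gave -0.54 (SE 0.29) as the log2 fold change and 0.896 as the edgeR adjusted p. Without wild type 1 the value was -0.20, and in limma-voom -0.035.

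Fbln2, a larger fibulin found in vessel walls and in endocardial cushion mesenchyme, was read at 2501, 2316, 1791 and 1762 CPM in wild types 1 to 4. In deletions 1 to 5 its levels were 1594, 1399.7, 1700, 2054 and 1414 CPM. The groups overlapped through deletion 4, which exceeded wild types 3 and 4. The log2 fold change was -0.36 (SE 0.15, edgeR adjusted p 0.896), and -0.18 in limma-voom. Fbln1, which binds elastin and fibronectin, had the narrowest spread of the 10, from 233 to 332 CPM. Wild types averaged 295 ± 35.2 CPM (SD, n = 4) and deletion libraries 256 ± 19.7 CPM (SD, n = 5). The log2 fold change was -0.20 (SE 0.10, edgeR adjusted p 0.896), and -0.098 in limma-voom.

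The cross-linking enzymes differed from each other in level but had their highest values in the same libraries. Lox, lysyl oxidase, was read at 727, 466, 252 and 243 CPM in wild types 1 to 4 and at 373, 338, 252, 310 and 318 CPM in deletions 1 to 5. All 4 libraries of the first litter were above all 4 of the second, a separation whose share over all genes was not counted. Its genotype log2 fold change was -0.41 (SE 0.30), -0.0100 without wild type 1 and -0.27 with the replicate block. Loxl1, the lysyl oxidase relative that maintains elastin polymer, was at 246, 194, 132 and 138 CPM in wild types 1 to 4 and at 124, 110, 125, 147 and 118 CPM in deletions 1 to 5. Here deletion 4 exceeded wild types 3 and 4, and the 2 first-litter wild types stood apart from the other 7 libraries. The log2 fold change of Loxl1 was -0.51 (SE 0.18, edgeR adjusted p 0.896), with the smallest unadjusted p of the 10 members, 0.0167. It was -0.31 without wild type 1 and -0.23 in limma-voom.

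The 2 microfibril-associated genes differed in their course over the libraries. Mfap4, a fibrinogen-related protein that binds fibrillin and tropoelastin, was at 955, 729, 426 and 462 CPM in wild types 1 to 4 and at 638, 476, 478, 565 and 468 CPM in deletions 1 to 5. Its highest 2 libraries were again wild types 1 and 2, and wild types 3 and 4 were the lowest 2. Emilin1, a glycoprotein at the interface of elastin and microfibril, was instead at 639, 609, 732 and 741 CPM in wild types 1 to 4 and at 582, 480, 754, 808 and 600.1 CPM in deletions 1 to 5. Every first-litter library was below every second-litter library, whichever the genotype. The share of all genes with such a separation was not counted. The genotype log2 fold change was -0.29 (SE 0.23) for Mfap4 and -0.08 (SE 0.15) for Emilin1. Mfap4 was at -0.038 without wild type 1, at -0.44 without wild type 3 and at -0.19 with the replicate block, and without deletion 2 Emilin1 was at 0.014. Emilin1 was also at -0.036 without wild type 3, -0.027 without wild type 4 and -0.043 without deletion 1, and at -0.13 to -0.17 without wild type 2, deletion 3 or deletion 4.

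The fibrillins build the microfibril. Fbn1 was read at 384, 499, 476 and 560 CPM in wild types 1 to 4 and at 302, 278, 533, 515 and 403 CPM in deletions 1 to 5. Fbn2, the fibrillin prominent before birth, was at 211, 241, 286 and 355 CPM in wild types 1 to 4 and at 164, 177, 298, 294 and 214 CPM in deletions 1 to 5. For both genes deletions 1 and 2 were the lowest 2 of the 9 libraries, and deletions 3 and 4 lay among the second-litter wild types. The genotype log2 fold change was -0.24 (SE 0.21) for Fbn1 and -0.25 (SE 0.21) for Fbn2. Fbn1 was at -0.15 without wild type 4, -0.15 without deletion 1 and -0.13 without deletion 2, and Fbn2 was at -0.093 without wild type 4 and -0.15 without deletion 1.

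**Figure D2:**
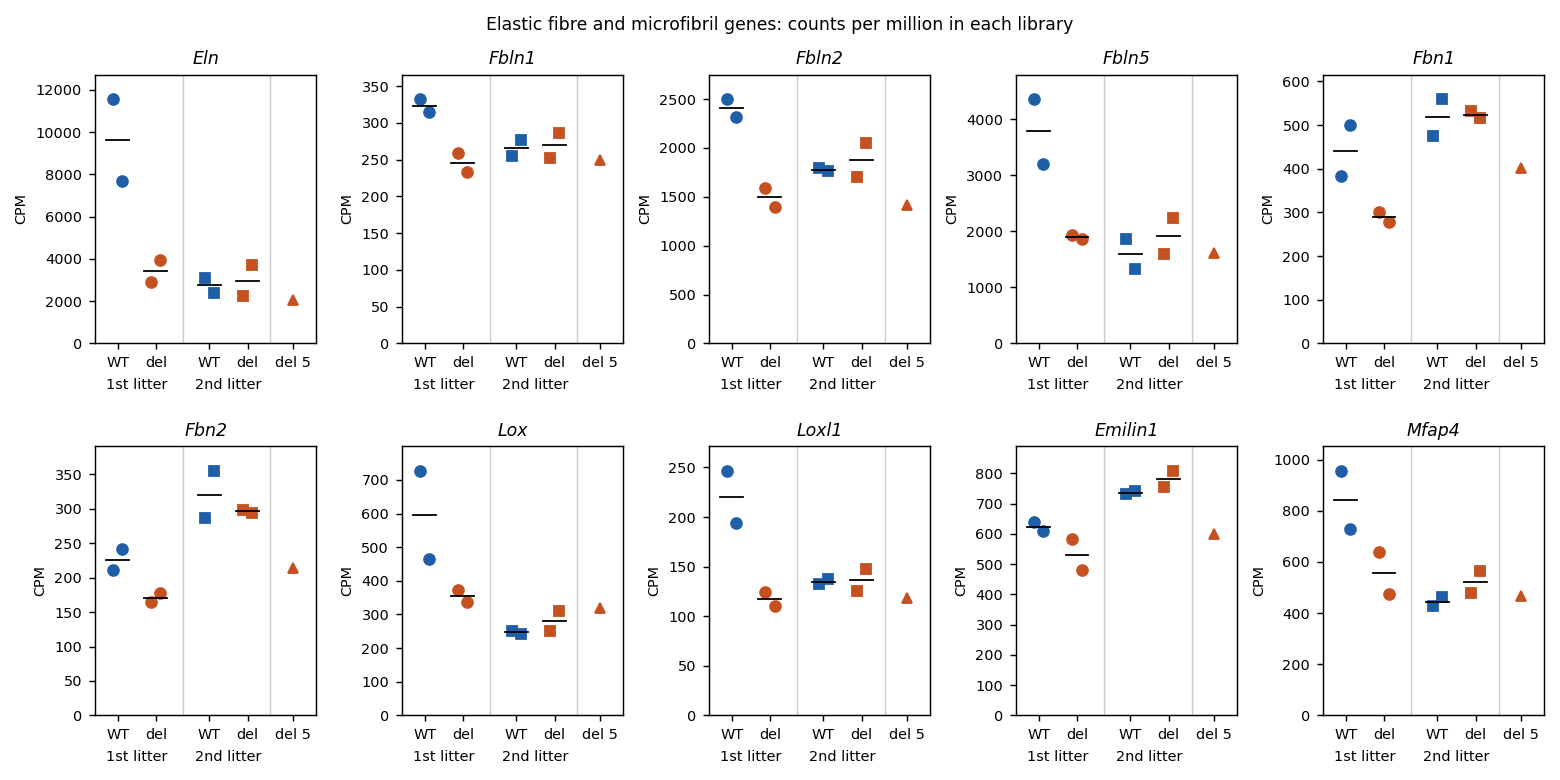
CPM of each of the 10 genes in each of the 9 libraries, 1 panel per gene, with genotype as colour, litter as symbol and horizontal lines at the mean of each pair. Wild types 1 and 2 hold the highest values of Eln, Fbln1, Fbln2, Fbln5, Lox, Loxl1 and Mfap4, while Fbn1, Fbn2 and Emilin1 are lowest in deletions 1 and 2.

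Within the first litter all 10 members were lower in both deletion libraries than in both wild types, a separation that 20.0% of all genes tested also had. Wild type 2 on its own was above both deletion libraries for all 10. The mean wild-type CPM over the mean deletion CPM was 2.82 for Eln, 2.00 for Fbln5, 1.88 for Loxl1, 1.68 for Lox and 1.61 for Fbln2. It was 1.52 for Fbn1, 1.51 for Mfap4, 1.33 for Fbn2, 1.32 for Fbln1 and 1.18 for Emilin1. Fitted to these 4 libraries alone, Eln had a log2 fold change of -1.48 (SE 0.32), and the members' adjusted p lay between 0.491 and 0.859 by edgeR. Nkx2-5 had a log2 fold change of -0.55 in this litter.

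In the second litter 0 of the 10 were lower in both deletion libraries than in both wild types, where 19.0% of all genes were, and 3 were higher without overlap, namely Lox, Emilin1 and Mfap4 (19.4% of all genes were). For Lox deletion 3 (252.4 CPM) and wild type 3 (251.9 CPM) were nearly equal. The ratio of wild-type to deletion mean CPM was 0.924 for Eln, 0.827 for Fbln5, 0.880 for Lox, 0.851 for Mfap4 and 0.991 for Loxl1. Fbn2, at 1.08, was the only member above 1 in this litter. The fitted log2 fold changes ran from -0.12 for Fbn2 to 0.27 for Fbln5. In this litter alone 9 members were above 0, with a median of 0.079. With deletion 5 added to this litter, 7 members were below 0 and 3 above, with a median of -0.035. The values were then -0.04 for Eln, 0.20 for Fbln5, 0.25 for Lox and -0.25 for Fbn2. Nkx2-5 was lower in the deletion libraries of this litter by a log2 fold change of -1.53.

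The difference between the 2 litters was tested as an interaction of genotype and litter over 8 libraries. The interaction term was above 0 for all 10 members, which means that the deletion stood higher against wild type in the second litter than in the first (48.6% of all genes tested were above 0). The members' median was 0.80 on the log2 scale, against -0.01 over all genes. For 8 members the unadjusted p was under 0.05 with the term above 0, as it was for 4.62% of all genes. The term was 1.61 (SE 0.44) for Eln, 1.27 (SE 0.34) for Fbln5, 0.93 (SE 0.29) for Lox, 0.92 (SE 0.21) for Loxl1 and 0.77 (SE 0.21) for Fbln2. It was smallest for Fbn2, at 0.29 (SE 0.19), and Emilin1, at 0.32 (SE 0.18), the 2 members with an unadjusted p over 0.05. No member passed edgeR's adjusted p, the lowest being 0.365 for Loxl1 and 0.452 for Eln, Fbln2 and Fbln5. edgeR called 2 genes in all (0.0121%). Without wild type 1 the term was 1.29 for Eln, with an edgeR adjusted p of 0.362. DESeq2 called 184 of 16492 genes (1.12%), with 4 members among them. In DESeq2 these had adjusted p values of 0.00502 for Eln, 0.00876 for Fbln5, 0.0143 for Fbln2 and 0.0154 for Loxl1, and log2 terms between 0.76 and 1.60. When DESeq2 was given the number as a block it called 1.01% of genes and again 4 members, but not the same ones: Mfap4 (adjusted p 0.00113), Loxl1 (0.00433), Fbln2 (0.00972) and Lox (0.0304) passed, while Eln was at 0.903 and Fbln5 at 0.611. edgeR with that block called no gene, and the term for Eln was 1.56 (SE 0.50, adjusted p 0.617). edgeR with no filter on low counts called 269 of 28085 genes above 0 (0.958%), with 6 members among them. In that fit the adjusted p was 4.24e-09 for Eln, 6.76e-06 for Fbln5, 0.00170 for Lox, 0.00215 for Loxl1, 0.0115 for Mfap4 and 0.0383 for Fbln2. The call of the interaction for these 6 members turned on the tool, the filter or the block, and edgeR's log2 term for Eln was 1.61 with the filter and 1.60 without.

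**Figure D3:**
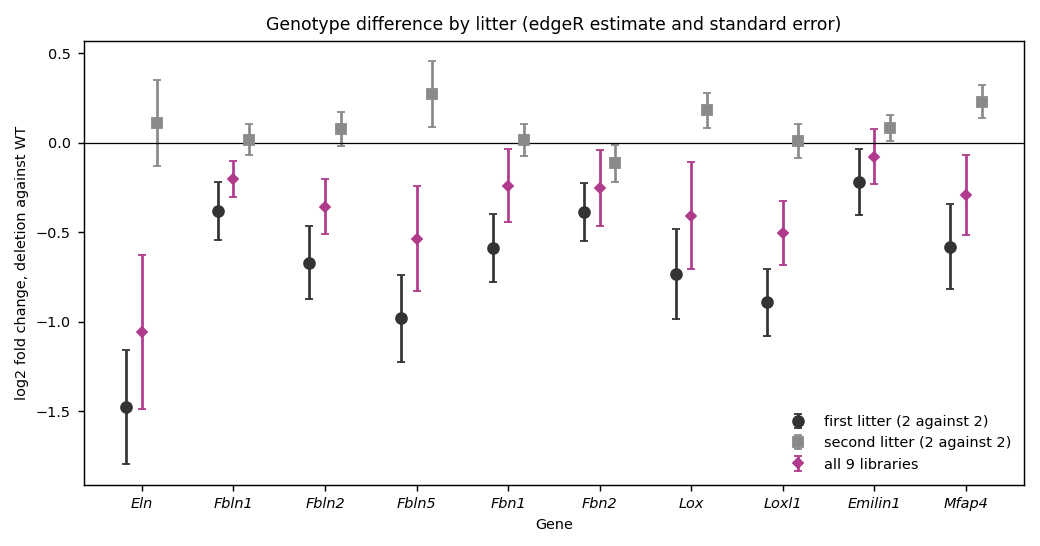
Log2 fold change of deletion against wild type for the 10 genes, fitted within the first litter, within the second litter and over all 9 libraries. Bars are standard errors. All 10 lie below 0 in the first litter, from -1.48 for Eln to -0.22 for Emilin1, and between -0.12 and 0.27 in the second.

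Compared across litters with genotype in the model, 3 members passed the adjusted test and moved in both directions. Fbn2 was higher in the second litter by 0.65 on the log2 scale (SE 0.10, edgeR adjusted p 0.0103), and Emilin1 by 0.40 (SE 0.10, adjusted p 0.0449). Of all genes 5.48% were called higher. Lox was lower by a log2 fold change of -0.80 (SE 0.21, edgeR adjusted p 0.0470), a direction in which 4.17% of all genes were called. The call of Fbn2 was kept when any of the 8 libraries of these litters was left out, with edgeR adjusted p between 0.0133 and 0.0468. That of Lox held without deletion 2 or deletion 4 and was lost without any of the other 6, at adjusted p of up to 0.152. That of Emilin1 held without deletion 2 and was lost without any of the other 7, at adjusted p of up to 0.124. Eln had the largest litter value of the 10, -1.01 (SE 0.36, edgeR adjusted p 0.109), and was called without deletion 4 (adjusted p 0.0490).

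The litter calls also turned on other settings. With deletion 5 read as part of the second litter, Fbn2 was the single member called (edgeR adjusted p 0.0171), where 5.34% of all genes were called higher. With no filter on low counts edgeR called Fbn2, Emilin1 and Fbn1 (adjusted p 0.0110) higher, with 3.62% of all genes, and Lox was lost (adjusted p 0.153). DESeq2 called the same 3 members higher, with 8.66% of all genes, and Lox and Mfap4 (adjusted p 0.0337) lower, with 9.04% of all genes. Fbn1, at 0.54 with an adjusted p of 0.0524 in the first fit, was also called at a filter of 50 counts (adjusted p 0.0426) and without wild type 2 (adjusted p 0.0178), and Mfap4 without deletion 2 (adjusted p 0.0338).

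The litter values were also fitted within each genotype. Among wild types alone, edgeR called Eln (log2 fold change -1.81, adjusted p 0.0229), Lox (-1.27, adjusted p 0.0359), Mfap4 (-0.92, adjusted p 0.0398) and Fbln5 (-1.25, adjusted p 0.0447) lower in the second litter, where 2.46% of all genes were called lower. Among deletion libraries, with deletion 5 left out, edgeR called 0 of 16522 genes. That no member passed there is therefore no result about the members. The largest values there were 0.85 for Fbn1 and 0.80 for Fbn2, both higher in the second litter, whereas Fbln5 was at 0.02. The difference between these within-genotype values is what the interaction term above measures.

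The members did not all follow the same course over the 9 libraries. Likeness was measured as the root-mean-square difference between log2 CPM profiles centred on their means, over the 11308 genes with a mean of at least 5 CPM. By this measure the nearest member to Eln was Fbln5 (0.335, rank 29 of the genes compared), followed by Lox (0.424, rank 86). Loxl1 was at rank 207, Mfap4 at 211, Fbln2 at 485 and Fbln1 at 1088, while Emilin1 was at 7294, Fbn1 at 8609 and Fbn2 at 9570. The 5 genes nearest to Eln were Gfra1 (0.235), Angpt2 (0.252), Chsy3 (0.258), Sost (0.260) and Galnt16 (0.261). Gfra1 was at 151 and 108 CPM in wild types 1 and 2 and between 29.8 and 61.4 CPM in the other 7 libraries. For Fbn1 the nearest genes were 1700017B05Rik (0.116), Nup214 (0.117), Fbn2 (0.121), Polr1a (0.121) and Lsr (0.121), and Emilin1 ranked 147. Fbln1 (0.325 from Fbn1 and 0.675 from Eln), Fbln2 (0.338 and 0.597) and Loxl1 (0.434 and 0.508) lay nearer to Fbn1 than to Eln. Mfap4 was nearly as far from Fbn1 (0.542) as from Eln (0.511). Fbln5 and Lox were farther from Fbn1 (0.649 and 0.685) than from Eln. The members therefore do not fall into separate groups by this measure. The 9 libraries share litters and genotypes, so these ranks and distances describe the samples and carry no test.

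The ratio of elastin to fibrillin transcript varied with litter. Per length, Eln exceeded Fbn1 by 45.1 and 23.1 times in wild types 1 and 2, by 9.80 and 6.36 times in wild types 3 and 4, and by 14.4, 21.2, 6.25, 10.8 and 7.72 times in deletions 1 to 5. All first-litter libraries lay above all those of the second. Eln over Fbn2 and Lox over Loxl1, per length, separated the litters too, the latter at 1.66 to 2.12 in the first and 1.22 to 1.45 in the second. Other ratios overlapped between litters. Eln over Fbln5 was at 1.28 to 2.26 in the first and 1.19 to 1.53 in the second. Eln over Lox, Eln over Mfap4 and Fbn1 over Fbn2 overlapped as well. How often ratios of other genes separate the litters was not counted.

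A promoter window is shown for Fbln5, the member nearest to Eln over the libraries, and for Fbn1, a fibrillin. Each lies around an annotated start, and the starts used in these samples were not measured. Windows of 250 bases before to 50 after an annotated start were taken from RefSeq on GRCm38.p6, where 5 of the 10 members matched, with 7 windows. They are written 5′ to 3′ along the gene's strand, and capitals mark matches on either strand to GGGCGG, the GC box, or AAGTG, the core of sites for NK-2 class homeodomain proteins such as Nkx2-5.
Fbln5, chr12:101819070-101819369, minus strand: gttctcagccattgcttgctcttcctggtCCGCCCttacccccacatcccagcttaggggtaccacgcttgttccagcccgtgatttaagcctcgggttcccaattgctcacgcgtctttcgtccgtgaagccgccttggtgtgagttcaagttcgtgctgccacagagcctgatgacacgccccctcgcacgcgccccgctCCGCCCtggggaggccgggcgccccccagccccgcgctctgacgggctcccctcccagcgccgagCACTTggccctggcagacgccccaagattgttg
Fbn1, chr2:125506389-125506688, minus strand: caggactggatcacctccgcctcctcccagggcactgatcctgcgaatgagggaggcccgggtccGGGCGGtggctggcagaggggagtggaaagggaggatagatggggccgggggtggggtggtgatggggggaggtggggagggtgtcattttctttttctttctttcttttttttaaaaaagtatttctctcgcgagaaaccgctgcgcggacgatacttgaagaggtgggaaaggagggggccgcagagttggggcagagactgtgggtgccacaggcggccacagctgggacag
The Fbln5 window shown holds 2 GC boxes and a single AAGTG, each on the opposite strand, where they read as CCGCCC and CACTT. This window lies wholly before the GENCODE gene body of Fbln5, whose upstream end is at 101819055. A further Fbln5 window in the table, at a start inside the gene, holds no match to either motif. The Fbn1 window holds 1 GC box and no AAGTG, and its RefSeq start lies inside the GENCODE gene body given above. Over the 7 windows of the members, 4 held GGGCGG and 4 held AAGTG, against 35.7% and 46.4% of the 32851 promoter windows in the table. The 2 Fbln1 windows overlap by 241 bases and share their AAGTG, so that site is counted in both. TATAAA, the TATA box, was in none of the 7 and in 13.6% of all windows. Such matches are descriptions of letters, and no binding was measured.

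Other microfibril genes outside the 10 were counted from a list of latent TGF-beta binding proteins, microfibril-associated and emilin proteins, and ADAMTS-like proteins. Of its 24 symbols, Adamtsl6 was not matched and the other 23 were tested. Of these 20 had a genotype log2 fold change below 0 (49.4% of all genes had), and the median was -0.36, against 0.003 over all genes. Without wild type 1 the median was -0.20, in limma-voom -0.16, and in the second litter alone it was -0.02 with 13 of 23 below 0. None was called by edgeR, and 7 had an unadjusted p under 0.05, all lower, where 2.94% of all genes were. Thsd4, which promotes fibrillin-1 assembly, was at 50.1, 44.4, 25.6 and 28.3 CPM in wild types 1 to 4 and at 19.6, 20.8, 19.1, 25.4 and 17.3 CPM in deletions 1 to 5. Its groups did not overlap over all 9 libraries, with deletion 4 and wild type 3 nearly equal. Such a separation with the deletion lower was found for 0.974% of all genes. Thsd4 was named for its small genotype p, so the lack of overlap is no separate result. Its log2 fold change was -0.86 (SE 0.21, unadjusted p 0.00163). Ltbp4, a latent TGF-beta binding protein needed for elastogenesis with fibulin-5, had a log2 fold change of -0.41 (SE 0.14, unadjusted p 0.0144). Emilin3 was at -0.64 (unadjusted p 0.0134) and Adamtsl5 at -0.53 (unadjusted p 0.0162). Mfap2, an abundant microfibril glycoprotein, stood at a mean of 785 CPM per kilobase, was above Eln per kilobase in 7 of 9 libraries (wild types 1 and 2 were the exceptions), and ranged from 743 to 1111 CPM. Across litters edgeR called 4 genes of the list, Ltbp1 higher in the second (0.51, adjusted p 0.0188) and Ltbp2 (-2.57, adjusted p 0.00803), Mmrn1 (-1.67, adjusted p 0.00512) and Adamtsl4 (-0.81, adjusted p 0.0374) lower. Over all genes tested 5.48% were called higher and 4.17% lower. The calls of Ltbp2 and Mmrn1 held without any single library. That of Ltbp1 was lost without wild type 4, deletion 3 or deletion 4, and that of Adamtsl4 without any of the 8 but deletion 1.

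The other cross-linking and processing genes, 10 in all, were divided, with 6 below 0 for genotype, a median of -0.09 and none at an unadjusted p under 0.05. Loxl2, a relative of Lox that acts on collagen, was higher in the second litter by 0.81 (edgeR adjusted p 0.0112), opposite to Lox. Pcolce, an enhancer of the protease that matures procollagen, was also higher (0.58, adjusted p 0.0230), as was Tll1, a protease of that family (1.21, adjusted p 0.0432). These 3 were the calls of the list, beside 5.48% of all genes called higher. Loxl2 was called without any single library, Pcolce was not without wild types 1, 3 or 4 or deletions 3 or 4, and Tll1 was not without any of the 8 but wild type 1. The highest levels of this list were those of Atox1, a copper chaperone, at 129 CPM per kilobase and Pcolce at 41.0 CPM per kilobase.

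Of 17 matrix partners and integrins 14 were below 0 for genotype, with a median of -0.12, while in the second litter alone 7 were below 0 with a median of 0.04. Itgb3, an integrin subunit that binds RGD sequences in fibrillin and fibronectin, was named for its small genotype p. Its log2 fold change was -0.49 (SE 0.12, edgeR unadjusted p 0.00149), and its groups did not overlap, as for 0.974% of all genes with the deletion lower. Itgb3 was not called by edgeR. DESeq2 called it at an adjusted p of 0.0462, and DESeq2 with the replicate block did not (0.238). Dcn, a small proteoglycan, was lower in the second litter (log2 fold change -1.84, edgeR adjusted p 0.00438), while Vcan, the large proteoglycan that links to fibrillin and fills the cushions, was higher by 1.58 (adjusted p 0.0239). Fn1, whose fibronectin network fibrillin assembly needs, was higher by 0.71 (adjusted p 0.0194), and Itga5, its receptor subunit, by 0.63 (adjusted p 0.0204). The list had 3 genes called higher and 1 lower, beside 5.48% and 4.17% of all genes. Dcn kept its call without any single library. The others lost theirs without some, Fn1 without wild type 4 or deletion 3, Itga5 without wild types 3 or 4 or deletion 3, and Vcan without any wild type or deletion 3. Itgb1, the common beta integrin subunit, was the most abundant of the list at 412 CPM per kilobase, followed by the collagen chaperone Fkbp10 at 118.

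Of 17 symbols listed for elastin-degrading proteases and their inhibitors 12 were tested, with 6 below 0 for genotype and a median of -0.05. Cst3, a secreted inhibitor of cysteine cathepsins, was at 538, 714, 515 and 542 CPM in wild types 1 to 4 and at 472, 378, 439, 438 and 382 CPM in deletions 1 to 5. The groups did not overlap (0.974% of all genes did so with the deletion lower), and the log2 fold change was -0.45 (SE 0.12, edgeR unadjusted p 0.00332). Cst3 too was named for that p. Ctss, an elastolytic cathepsin of macrophages, was lower in the second litter (log2 fold change -1.45, edgeR adjusted p 0.00926), also without any single library. It was the single litter call of the list, beside 4.17% of all genes called lower. Cst3 at 388 and the gelatinase Mmp2 at 205 CPM per kilobase had the highest levels of this list. Mmp12, Elane and Serpina1a did not pass the filter on low counts, and the symbols Ctsv and Ela2 were not matched.

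In whole tissue fewer cells of a type and less RNA per cell cannot be told apart, so the markers of the cells present are given beside these results. The 13 smooth muscle markers summed to 5190, 5209, 5118 and 4773 CPM in wild types 1 to 4 and to 3810, 3305, 4739, 4333 and 4549 CPM in deletions 1 to 5. All 13 were below 0 for genotype (49.4% of all genes were), with a median of -0.34, and 8 had an unadjusted p under 0.05 (2.94% of all genes were lower at that p). In the second litter alone 11 of 13 were below 0, with a median of -0.10. Also below 0 for genotype were all 11 myocardial markers (median -0.213), all 8 leukocyte (-0.475), 9 of 11 epicardial (-0.549) and 8 of 10 erythroid (-1.067). Above 0 were 11 of 12 cushion markers (median 0.373), 5 of 9 endothelial, 5 of 6 neural crest and 9 of 10 neuronal, of those tested. In the first litter the smooth muscle sum, like Eln, was higher in both wild types than in both deletion libraries. It was also higher in both wild types of the second litter, where Eln overlapped. The smooth muscle sum was nearly the same in wild types 1 and 3, where Eln was at 11564 and 3111 CPM. The 12 cushion markers, of the mesenchyme that forms valves, summed to 1256 and 1023 CPM in wild types 1 and 2 and to 2154 to 2579 CPM in the other 7 libraries. That is the same division of libraries as for Eln, in the opposite direction, and 8 of the 12 were called higher in the second litter by edgeR (5.48% of all genes were). The cushion gene Sox9 was at 59.1 and 39.0 CPM in wild types 1 and 2 and at 118 to 277 CPM elsewhere.

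The adult-type globin Hbb-bs and the leukocyte sum were also highest in wild types 1 and 2. The embryonic globin Hbb-y was highest in wild type 2 (4869 CPM), then in deletions 5 and 3 (3687 and 3163 CPM), with wild type 1 at 2763 CPM. Hba-x, another embryonic globin, was highest in deletions 5 and 3 (1188 and 1113 CPM). Their interaction terms, 2.093 for Hbb-y and 2.088 for Hba-x, were above 0 like that of Hbb-bs. Hbb-bs was at 1267 and 1688 CPM in wild types 1 and 2, at 321 and 271 CPM in deletions 1 and 2, and at 16.8 to 68.5 CPM in the other 5 libraries. It was 1 of the 2 genes called in the interaction of genotype and litter by edgeR (3.52, SE 0.32, adjusted p 0.0350), with Hbb-bt as the other; both were picked out after their values were seen. The 8 leukocyte markers summed to 329 and 336 CPM in wild types 1 and 2, 237 and 201 CPM in deletions 1 and 2, and 65.4 to 121 CPM in the other 5. The 11 epicardial markers summed to 1340 and 1361 CPM in wild types 1 and 2 and to 579 to 1065 CPM elsewhere. The 9 endothelial markers ranged from 710 to 958 CPM in wild type and from 717 to 888 CPM in the deletion. The 6 neural crest markers that were tested, in a list of 8, had a median genotype log2 fold change of 0.49, and the list summed to between 257 and 381 CPM. The 10 erythroid markers summed to 1825 to 10348 CPM in wild type and 1885 to 5720 CPM in the deletion, with wild type 2 the highest. Of 8 cartilage and skeletal muscle markers, 6 were at 0 in at least 1 library, and their sum ran from 135 to 485 CPM. None of the smooth muscle, cushion, leukocyte, epicardial or endothelial markers was at 0 in any library. The part of these cells in the levels of the elastic fibre genes was not tested.

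**Figure D4:**
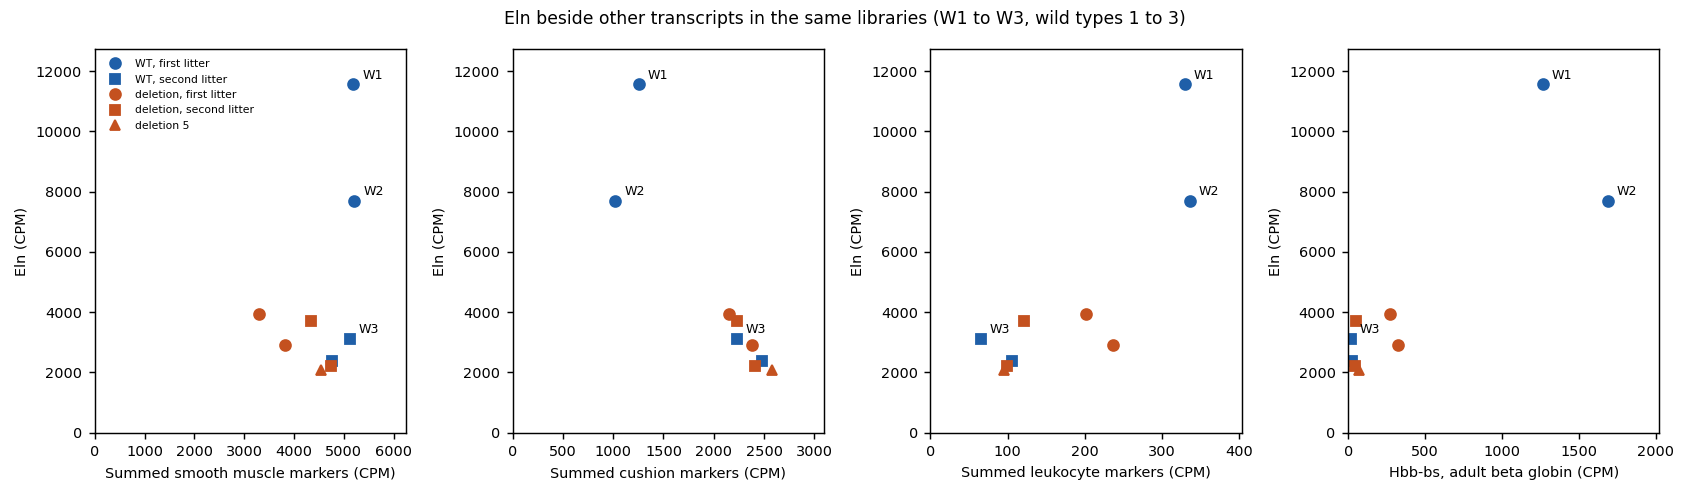
Eln (CPM, vertical axis) against summed smooth muscle markers, summed cushion markers, summed leukocyte markers and the globin gene Hbb-bs (CPM, horizontal axes), with 1 point per library, coloured by genotype and shaped by litter. Wild types 1 and 2 stand apart in Eln, cushion, leukocyte and globin values, and lie beside wild type 3 in smooth muscle markers. Deletions 1 and 2 have the lowest smooth muscle sums.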

How the data were processed

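RNA from dissected outflow tracts was made into low-input SMART-Seq libraries, per the labels' protocols. The authors deposited whole-number read counts per gene symbol in 9 files. The tools named in the submitters' processing notes are STAR 2.5.0c, HTSeq 0.6.0, Picard and DESeq2, with mm10 as the build; the sources used here give neither annotation nor strand setting. The 5 rows naming no gene held 20.65% to 23.52% of reads and were left out. No 2 libraries agreed within sampling noise.

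From the counts, edgeR 4.0.16 in R 4.3.3 (TMM factors, robust quasi-likelihood, two-sided) tested genes kept by filterByExpr at a minimum count of 10, with Benjamini-Hochberg adjustment over 16522 genes and a threshold of 0.05. The genotype test had no other term, the litter test added genotype with deletion 5 at a level of its own, and the interaction left deletion 5 out. DESeq2 1.42.0 and limma 3.58.1 (voom with sample weights) were alternatives. Log2 fold changes are deletion minus wild type, or second minus first litter. CPM use TMM-scaled library sizes, levels per kilobase divide by merged GENCODE exons, and log2 CPM carry a prior count of 2. The edgeR fits of genotype and of the interaction were also run on simulated counts. The litter fit, DESeq2 and limma-voom were not.

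The members and lists were chosen with earlier results of these data known. Of the other lists, up to 4 genes per list were named by smallest unadjusted genotype p under 0.05, up to 4 by litter call, and the 2 with the highest level per kilobase. Of each marker list the summed CPM is given. Promoter sequences are from RefSeq on GRCm38.p6. Same-numbered libraries of the 2 genotypes deviated together (correlations of 0.242, 0.137, 0.227 and 0.176 for numbers 1 to 4). Over all wild-type and deletion pairs the mean correlation was 0.193 within a litter and -0.196 between litters. Numbers 1 and 2 are also the first litter and 3 and 4 the second. The correlations therefore show shared litter, and do not show that equal numbers pair the samples beyond it. Fits with the replicate block are alternatives that assume such a pairing.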

Additional observations from a re-analysis of the deposited data

Results flagged for a closer look

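Cst3 in wild type 2 lay apart from the other wild types. It was at 714 CPM there and between 515 and 542 CPM in the other 3, and the gap to the nearest of them, as a share of the group's range on the log2 scale, was 0.844 against Dixon's critical value of 0.829 for a group of 4. Of 66 groups of libraries examined, over 33 genes, it was the single such case, and chance alone exceeds the critical value in about 5% of groups.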

How the results depend on the processing

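With genotype as the only term the count of genes called was 0. It was 38 with DESeq2, 4 with limma-voom (Pcsk6, Krt8, Clu and Gja3), 1 in the first litter alone (Gm3375), 7 in the second alone, 69 with DESeq2 and the replicate block, and 0 to 1 when single libraries were left out (Pcsk6 without wild type 1, Gm3375 without wild type 3). With the replicate number as a block, edgeR called 0 genes, and the members' median was -0.28. The block was also run for the interaction, where edgeR called 0 genes and DESeq2 161, and could not be run for litter, since each number falls in a single litter. The count between litters, 1594, was 3141 with DESeq2, 596 in wild types alone, 0 in deletion libraries alone, and 380 to 1724 without single libraries, the lowest without wild type 3. The count for the interaction, 2, was 747 with no filter on low counts, 184 with DESeq2, 10 with deletion 5 read as the second litter, and 0 to 243 without single libraries, the highest without deletion 1. The cause was not tested. The block in DESeq2 and in the interaction, the fits within a genotype, and those without deletion 2 (with litter as a factor, or with wild type 1 also left out) were chosen after seeing the data.

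Of the members' genotype values under alternatives 215 kept their direction and 15 reversed. Emilin1 ranged from -0.17 to 0.014 without single libraries, the latter without deletion 2, and with limma-voom Lox was at 0.049 and Mfap4 at 0.037. In the second litter alone the values were 0.11 for Eln, 0.017 for Fbln1, 0.077 for Fbln2, 0.27 for Fbln5, 0.016 for Fbn1, 0.18 for Lox, 0.011 for Loxl1, 0.082 for Emilin1 and 0.23 for Mfap4. With deletion 5 added, Fbln5 was at 0.20, Lox at 0.25 and Mfap4 at 0.18, and the other 7 members were below 0. For litter, Fbln2 ranged from -0.18 to 0.035 without single libraries, and in deletion libraries alone Fbln1 was at 0.13, Fbln2 at 0.33, Fbln5 at 0.021 and Loxl1 at 0.22. The interaction kept its direction for all 10 members in the 15 alternatives run. Depth was not limiting for the members, the lowest of which had 3157 reads in any library.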
